A study of Mus musculus with 7 samples.

Results

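The regions described here are H3K27me3 peaks of mouse spermatocytes at postnatal day 12 (P12) that carried no H3K4me3 at P12 and still lay under an H3K27me3 peak at postnatal day 17 (P17). They were selected on the called peaks of 3 deposited lists, as the P12 H3K27me3 peaks that share 0 bp with a P12 H3K4me3 peak and at least 1 bp with a P17 H3K27me3 peak. Of 13028 P12 H3K27me3 peaks, 4247 met this rule (32.6%, Wilson 95% interval 31.8% to 33.4%). Among them, 1945 had no P12 H3K4me3 peak within 5 kb of either edge and are called isolated, and 2302 had one within 5 kb and are called flanking. The set they are most like, P12 H3K27me3 peaks that do share bp with P12 H3K4me3 and were kept at P17, held 8170 peaks and is called the both-mark set.

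H3K27me3 is laid down by Polycomb repressive complex 2 (PRC2) and marks genes and domains that are kept silent. EED is the PRC2 subunit that binds existing H3K27me3 and stimulates the catalytic subunit, so that the mark can be propagated beyond the places where the complex is recruited. H3K4me3 marks promoters, above all those rich in CpG, and promoters of developmental regulators in the germ line and in embryonic stem cells often carry both marks. In mouse embryonic stem cells PRC2 concentrates at CpG-rich promoters, whereas H3K27me3 without H3K4me3 can lie at their sides or far from any of them.

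The series profiled wild-type CD1 spermatocytes, isolated from enzymatically digested testes on Percoll, by chromatin immunoprecipitation and sequencing. The groups used here were P17 EED, P17 H3K27me3 and P17 H3K4me3, and P12 H3K27me3 and P12 H3K4me3; all are untreated wild-type cells. The P17 histone-mark lists each come from 2 pooled replicates and the other 3 from 1 library, so there is 1 list per mark and stage, no spread between replicates could be measured, and no difference between stages was tested. Fractionated testis cells at either age mix stages of meiotic prophase and can hold other testis cells, and a peak list does not tell cells apart; the cell type label was not checked here, since peak lists carry no gene levels. How many animals gave the cells is not known here.

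The lists held 2701 EED peaks, 26387 H3K27me3 peaks and 51603 H3K4me3 peaks at P17, against 13028 H3K27me3 peaks and 44142 H3K4me3 peaks at P12. They give coordinates without a score, height or read number, so the depth and signal behind a peak are unknown, and intervals below cover counting of peaks only and treat neighbouring peaks as independent. The antibody label of the P17 H3K4me3 sample names H3K27me3, against its title; 80.5% of its peaks shared bp with P12 H3K4me3 and 14.8% with P12 H3K27me3. Coordinates are mm9, counted from 1, and no mm9 gene annotation or genome sequence was used here, so regions are given by position and without gene names.

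At the edges of the rule, the 3 members with the least overlap shared 8, 14 and 15 bp with P17 H3K27me3, and the 3 nearest peaks left out lay 1, 4 and 13 bp away from such a peak. The members closest to P12 H3K4me3 had gaps of 1, 1 and 6 bp, while the both-mark peaks with the least H3K4me3 shared 4, 4 and 5 bp with it. The isolated members closest to the 5 kb line had gaps of 5004, 5010 and 5011 bp, and the flanking members farthest out had gaps of 4982, 4982 and 4993 bp. Few members sat on the overlap lines: 36 of 4247 shared less than 50% of their width with P17 H3K27me3, and 137 lay within 100 bp of P12 H3K4me3. Just outside, 101 both-mark peaks shared under 100 bp with P12 H3K4me3. Around the 5 kb line, 164 flanking members lay between 4 and 5 kb and 148 isolated members between 5 and 6 kb. These windows are wider than the 100 bp used for the overlap lines, so the counts are not comparable.

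Isolated and flanking members were short and alike in width at P12. Isolated members had a median width of 770 bp (quartiles 609 and 1019 bp, widest 5584 bp), flanking members 791 bp (615 and 1039 bp, widest 4196 bp) and both-mark peaks 1545 bp (944 and 2616 bp, widest 25303 bp). The middle ranges of isolated and flanking members almost coincided, and the both-mark set was shifted upwards. Together the members covered 3.82 Mb at P12, against 17.3 Mb for the both-mark set. The 554 peaks without H3K4me3 that had no P17 H3K27me3 peak over them were shorter still, at a median of 586 bp.

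The classes differed in what lay beside them. The nearest other P12 H3K27me3 peak was a median of 5474 bp from an isolated member, 353 bp from a flanking member and 2891 bp from a both-mark peak. The nearest P12 H3K27me3 peak with H3K4me3 lay a median of 32662 bp from isolated members and 728 bp from flanking members. Closeness to P12 H3K4me3 divided the classes, so these contrasts between isolated and flanking members follow in part from the rule. An H3K4me3 peak within 5 kb does not by itself make a domain with both marks, so this was checked. For 1953 of the 2302 flanking members (84.8%, 83.3% to 86.2%) at least 1 H3K4me3 peak within 5 kb shared bp with another P12 H3K27me3 peak. The remaining 349 (15.2%) sat beside H3K4me3 peaks free of H3K27me3, and for them the name of a flank of a both-mark domain does not hold. In all, 1824 H3K4me3 peaks were the nearest of some flanking member; 386 of them (21.2%) had 2 or more such members and 150 (8.22%) had members on both sides.

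At P17 these regions lay under wider H3K27me3 peaks, which is described without a test because the P17 list chose the members and because pooling and depth also move peak widths. Over isolated members the P17 peak measured a median of 3456 bp, and the member itself 770 bp at P12, a median ratio of 4.25 with 10% of members under 2.24 and 10% over 9.97. Over flanking members the P17 peak measured 7141 bp, against 791 bp at P12 (median ratio 8.72), and over both-mark peaks 5111 bp, against 1545 bp (3.27). In none of these 3 sets was a P17 peak narrower than the P12 peak it overlapped. The H3K27me3 peak at P17 reached past both edges or exactly to them for 96% of isolated members (95.1% to 96.8%), 96.5% of flanking members (95.6% to 97.2%) and 99.7% of both-mark peaks (99.6% to 99.8%). Over all P12 H3K27me3 peaks, those with no P17 peak included, the share was 93.9%, so lying wholly under a P17 peak was not particular to the members.

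Isolated members stayed apart from both-mark domains at P17, whereas most flanking members were joined to one. Of isolated members, 53 of 1945 (2.72%, 2.09% to 3.55%) lay in a P17 H3K27me3 peak that also covered a both-mark P12 peak, against 1699 of 2302 flanking members (73.8%, 72% to 75.6%). Since closeness to H3K4me3 divided the classes, this contrast follows in part from the rule. Beside H3K4me3 with H3K27me3, 1696 of 1953 flanking members were joined (86.8%). The 3 joined members among the 349 beside H3K4me3 without H3K27me3 (0.86%) are no separate result, since these 349 had no H3K4me3 peak of a both-mark region within 5 kb by the way they were set apart. The P17 peaks over these 349 measured a median of 3510 bp, close to those over isolated members (3456 bp); over the other flanking members the median was 7954 bp. By gap to P12 H3K4me3, the joined share was 89.9% up to 500 bp, 84.4% from 500 to 1000 bp, 79.3% from 1 to 2 kb and 47.3% from 2 to 5 kb. Beyond the 5 kb line it was 8.02% up to 10 kb and 0.756% from 10 to 20 kb, and it was 0 of 536 from 20 to 50 kb, which allows up to 0.56% (3 counts of the total, used for every count of 0 below; the Wilson upper limit is 0.712%).

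**Figure D1:**
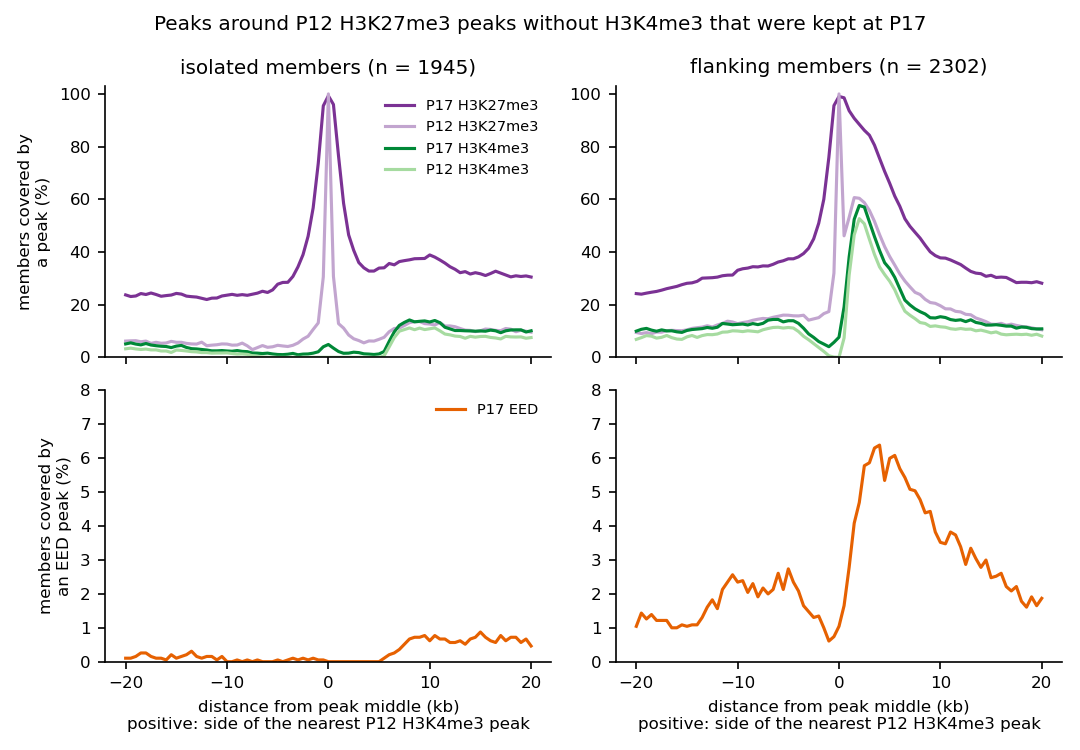
Share of members covered by a peak of each list (upper panels, percent) and by an EED peak (lower panels, percent, on a narrower scale) against distance from the middle of the member in kb, turned so that the nearest P12 H3K4me3 peak lies on the positive side; isolated members are on the left (n = 1945) and flanking members on the right (n = 2302). Around isolated members P17 H3K27me3 covered 46.5% and 46% of members 2 kb to either side, while beside flanking members it stayed at 88.4% of members 2 kb towards the H3K4me3 peak and 50.9% at the same distance away from it.

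The profile around the peak middles shows the same shape in position. At 1 kb from the middle of isolated members, P17 H3K27me3 covered 76.5% of them on the side of the nearest H3K4me3 peak and 73.6% on the other side, against 12.8% and 13.1% for P12 H3K27me3. At 5 kb the P17 shares were 33.9% on the side of the H3K4me3 peak and 27.8% on the other side. Around flanking members the coverage was lopsided: 2 kb towards the H3K4me3 peak it was 88.4% at P17 and 60.4% at P12, and 2 kb away from it 50.9% at P17 and 15.1% at P12. Flanking members had an H3K4me3 peak within 5 kb on that side by the rule, mostly one with H3K27me3. The lopsided shape therefore follows in part from the rule and from how the profiles were turned. Neighbouring isolated members were also joined to each other when close. Of 289 pairs of adjacent isolated members within 1 kb, 283 (97.9%) lay in a single P17 peak, as did 51 of 76 pairs 1 to 2 kb apart (67.1%) and 19 of 112 pairs 2 to 5 kb apart (17%). Pairs 5 to 10 kb apart shared a P17 peak in 2 of 104 cases. The 4247 members thus lay in 3258 P17 peaks, 665 of which held 2 or more of them and the fullest of which held 11.

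Few members had gained H3K4me3 at P17. A P17 H3K4me3 peak shared bp with 112 of 1945 isolated members (5.76%, 4.81% to 6.88%) and with 362 of 2302 flanking members (15.7%, 14.3% to 17.3%). The share over all P12 H3K27me3 peaks was 66.3%, most of it from peaks that carried H3K4me3 at P12 already. Of the 554 peaks without H3K4me3 at P12 that were not kept at P17, 15 shared bp with P17 H3K4me3 (2.71%, 1.65% to 4.42%). The difference, isolated minus flanking, was -9.97 percentage points (Newcombe 95% interval -11.8 to -8.15), and isolated members were lower on 20 of 20 chromosomes. With a P17 H3K4me3 peak within 1 kb counted, the difference was -48.8 points. Distance to P12 H3K4me3 divided the classes and most P17 H3K4me3 peaks lay on P12 ones, so both differences follow in part from the rule and are given as descriptions.

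The difference of -9.97 points lay in P12 H3K4me3 peaks that reached farther at P17, from which isolated members were set over 5 kb apart by the rule. P17 H3K4me3 peaks that share no bp with a P12 H3K4me3 peak, called new here, were found on 112 isolated members (5.76%) and on 132 flanking members (5.73%). The difference was 0.0242 percentage points (-1.37 to 1.45), an interval that spans 0. On a further 230 flanking members (9.99%) and 0 isolated members the H3K4me3 belonged to an extended P12 peak. Where the peak was new, P17 H3K4me3 covered a median of 88.9% of an isolated and 88.4% of a flanking member, whereas extended peaks reached a median of 150 bp into the member, 23% of its width. The new H3K4me3 peaks on isolated members had a median width of 1225 bp, close to the 1228 bp of all 10057 new P17 H3K4me3 peaks.

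By gap to P12 H3K4me3, the share of members with P17 H3K4me3 was 33.2% (29.8% to 36.9%) within 500 bp and between 7.18% and 9.24% in the 3 classes from 500 bp to 5 kb. It was 7.36% from 5 to 10 kb, 5.86% from 10 to 20 kb, 5.22% from 20 to 50 kb and 2.97% (1.51% to 5.76%) beyond 50 kb. The intervals of neighbouring classes beyond 500 bp overlapped. Of the 349 flanking members beside H3K4me3 free of H3K27me3, 20.9% (17% to 25.5%) carried P17 H3K4me3, against 14.8% (13.3% to 16.4%) of the other flanking members.

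**Figure D2:**
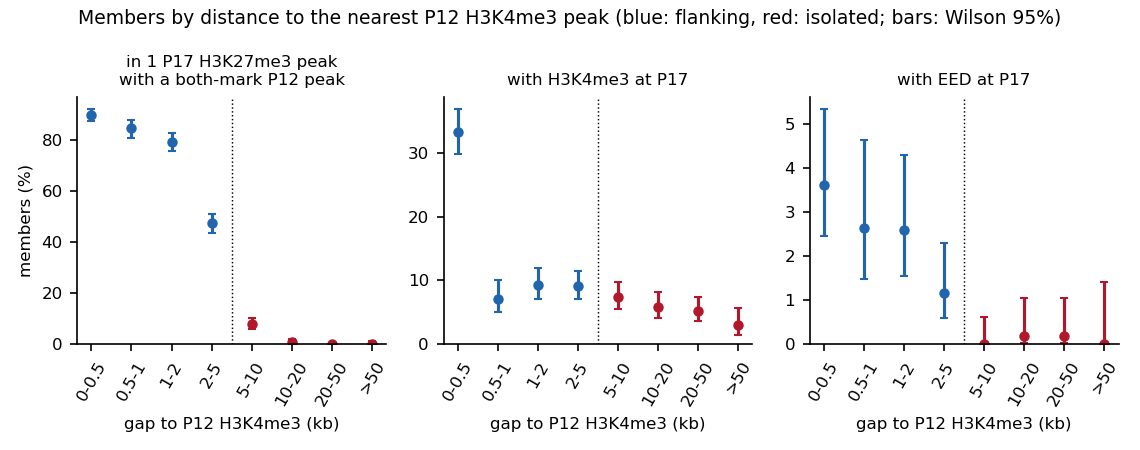
Percent of members in a P17 H3K27me3 peak shared with a both-mark P12 peak (left), with H3K4me3 at P17 (middle) and with EED at P17 (right), by gap to the nearest P12 H3K4me3 peak in kb; points are shares, bars Wilson 95% intervals, blue flanking and red isolated members, and the dotted line marks 5 kb. Joining declined from 89.9% to under 1% beyond 10 kb, H3K4me3 at P17 dropped after the first class, and EED was on 0 of 611 members in the first class beyond 5 kb.

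EED was rare on isolated members, though not on them alone. An EED peak shared bp with 2 of 1945 isolated members (0.103%, 0.0282% to 0.374%), 57 of 2302 flanking members (2.48%, 1.92% to 3.19%) and 728 of 8170 both-mark peaks (8.91%, 8.31% to 9.55%), against 6.11% of all P12 H3K27me3 peaks. The rule used no EED value. Of the 349 flanking members beside H3K4me3 free of H3K27me3, 1 carried EED (0.287%, 0.0506% to 1.6%), against 56 of the other 1953 flanking members (2.87%, 2.21% to 3.71%). Of the 554 peaks without H3K4me3 that were not kept at P17, 0 carried EED (up to 0.542%). Low EED was therefore not particular to isolated members. The difference, isolated minus flanking, was -2.37 percentage points (-3.1 to -1.75); isolated members were lower on 14 chromosomes and higher on 0 of 20. Counted together, the members minus the both-mark set came to -7.52 points (-8.23 to -6.8). With EED peaks within 1 kb counted as well, 6 isolated members (0.308%) and 162 flanking members (7.04%) had EED, against 828 both-mark peaks (10.1%), and the difference between isolated and flanking members was -6.73 points. Flanking members lay a median of 728 bp from a P12 H3K27me3 peak with H3K4me3, so EED on such a neighbour can count here. The difference of -6.73 points thus follows in part from the rule. When P12 H3K27me3 peaks within 1 kb of each other were merged first, 1433 of the 2302 flanking members (62.3%) became part of a peak with both marks, and the difference between the isolated and flanking peaks that were left, -0.388 points (-1.19 to 0.0638), no longer excluded 0.

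Wider peaks have more room for an EED peak, so the shares were also compared within width classes. Isolated members minus both-mark peaks came to -8.81 points (-9.45 to -8.15), and over 10 width classes to a smaller -2.4 points (-2.89 to -1.91). Isolated minus flanking members came to -2.37 points, and over 10 width classes to -2.3 points (-2.94 to -1.65). For flanking members minus both-mark peaks the difference of -6.43 points (-7.28 to -5.5) did not remain: over 10 width classes it was 0.21 points (-0.617 to 1.04). All members minus both-mark peaks then came to -1.03 points (-1.65 to -0.416). Above 800 bp, EED lay on 0 of 888 isolated members, which allows a share of up to 0.338% (Wilson upper limit 0.431%), and on 43 of 1124 flanking members (3.83%, 2.85% to 5.11%). Among peaks over 2000 bp the counts were 0 of 43 isolated members (up to 6.98%), 9 of 77 flanking members (11.7%) and 589 of 3091 both-mark peaks (19.1%). Peak height was not in the lists, so whether weaker H3K27me3 or EED signal at isolated members goes with their low share was not tested.

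**Figure D3:**
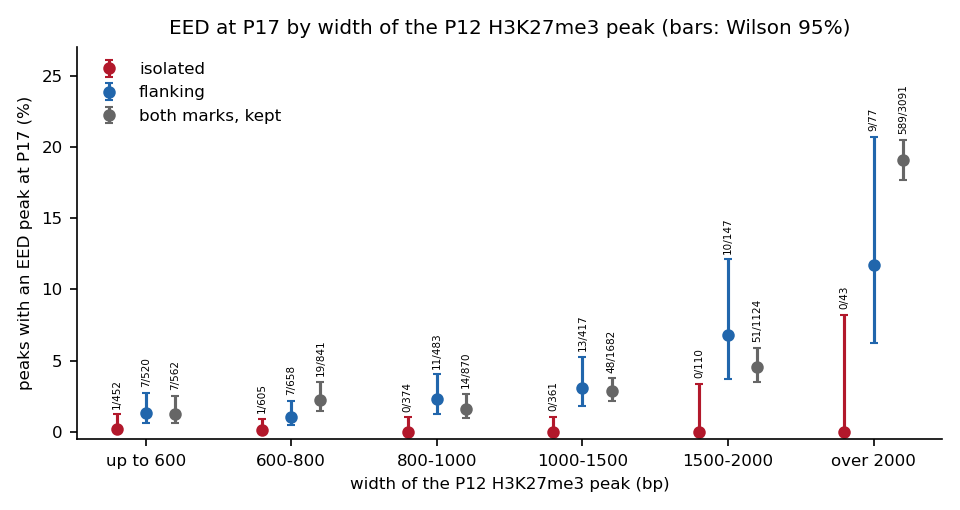
Percent of P12 H3K27me3 peaks with an EED peak at P17, by width of the P12 peak in bp, for isolated members (red), flanking members (blue) and both-mark peaks kept at P17 (grey); bars are Wilson 95% intervals and the numbers give peaks with EED over all peaks of the class. Flanking and both-mark peaks rose together with width, to 11.7% and 19.1% over 2000 bp, while isolated members stayed at 0 above 800 bp.

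The P17 domains over the members were compared likewise, in width classes chosen after the lists had been seen. P17 H3K27me3 peaks that held isolated members and no other P12 H3K27me3 peak carried EED in 4 of 1523 cases (0.263%), and those that held flanking members and no both-mark peak in 4 of 544 (0.735%). Those that held flanking members together with both-mark peaks carried it in 242 of 1186 cases (20.4%), and those that held both-mark peaks and no member in 305 of 5199 (5.87%). The 36 P17 peaks that held isolated members together with both-mark peaks, at a median width of 17535 bp, carried EED in 11 cases (30.6%). Domains with a both-mark peak thus had the higher shares for isolated and flanking members alike, and they were also the wider ones. Among P17 peaks of 4 to 8 kb, the share with EED was 0.485% of 412 peaks over isolated members (0.133% to 1.75%), 6.17% of 583 joined peaks (4.49% to 8.43%) and 5.85% of 2717 both-mark peaks without members (5.03% to 6.8%). From 8 to 16 kb the counts were 0 of 52 (up to 5.77%), 94 of 388 (24.2%) and 105 of 383 (27.4%). Up to 4 kb, 2 of 1059 peaks over isolated members (0.189%, 0.0518% to 0.686%), 1 of 71 joined peaks and 17 of 2065 both-mark peaks without members (0.823%, 0.515% to 1.31%) carried EED, with overlapping intervals. Domains over isolated members with no other P12 H3K27me3 peak were thus lower in the 2 classes from 4 to 16 kb, and in those classes joined domains overlapped in their intervals with both-mark domains that held no member. Joined P17 peaks were wide (median 7570 bp, against 4390 bp for both-mark peaks without members).

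EED near flanking members lay mostly on the side of the H3K4me3 peak. At the middle of flanking members an EED peak covered 1.04% of them; at 2 kb towards the H3K4me3 peak it covered 4.69% and at 5 kb 5.99%, against 1.35% and 2.74% at the same distances on the other side. The highest share, 6.39%, stood at 4 kb on the H3K4me3 side. The profile was turned to that side, where the rule placed an H3K4me3 peak, so the contrast between sides follows in part from the rule. The 57 flanking members with EED lay in 48 P17 peaks on 14 chromosomes, and 55 of them were joined with a both-mark peak. Of these 57 members, 44 carried 1 EED peak, 11 carried 2, 1 carried 3 and 1 carried 4. Around isolated members EED covered at most 0.874%, at 15 kb on the side of the nearest H3K4me3 peak.

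Isolated members were unevenly spread over the chromosomes, and flanking members less so by range. Isolated members made up a median of 13.1% of a chromosome's P12 H3K27me3 peaks over 20 chromosomes. The highest shares were those of chromosome 8 with 24.7% (22% to 27.7%), chromosome 4 with 22.6% (20.2% to 25.2%) and chromosome 5 with 20.1% (17.8% to 22.6%). The lowest were those of the X chromosome with 4.17% (1.79% to 9.38%, 5 of 120 peaks), chromosome 3 with 6.71% (4.82% to 9.27%) and chromosome 18 with 7.53% (5.38% to 10.4%). Flanking members ran from 10.8% on the X chromosome (6.44% to 17.7%) to 21.1% on chromosome 5 (18.7% to 23.6%). Chromosomes 4, 5 and 8, singled out after their shares had been seen, held 34.3% of isolated members (32.2% to 36.4%), 25.2% of flanking members (23.4% to 27%) and 19.4% of both-mark peaks (18.5% to 20.2%). Clustering means that these intervals are too narrow.

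**Figure D4:**
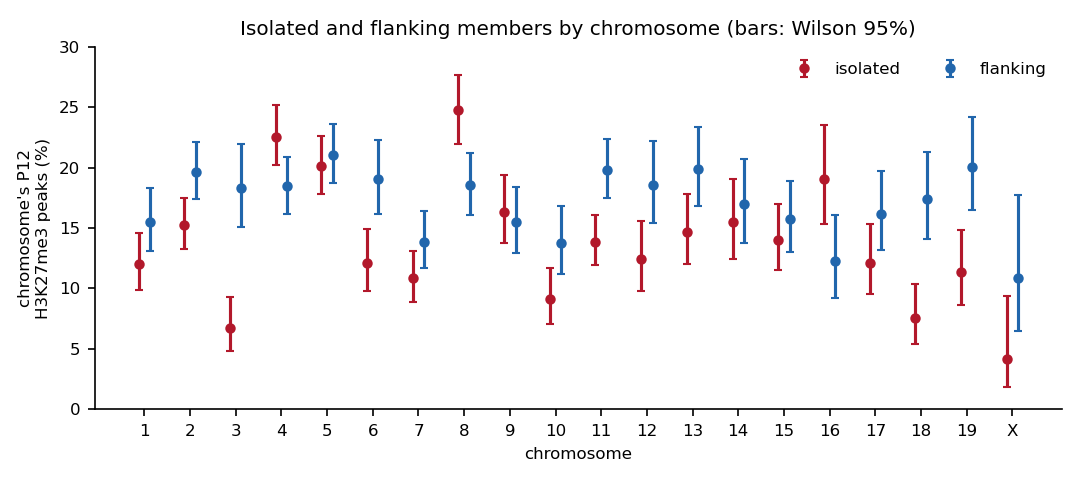
Isolated members (red) and flanking members (blue) as a percent of each chromosome's P12 H3K27me3 peaks; points are shares and bars Wilson 95% intervals. Chromosomes 8 and 4 stood highest for isolated members at 24.7% and 22.6%, and the X chromosome lowest at 4.17%.

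Most isolated members had others nearby. With gaps of at most 50 kb counted as 1 cluster, 617 isolated members (31.7%) stood alone, 758 (39%) lay in clusters of 2 to 4, 336 (17.3%) in clusters of 5 to 9 and 234 (12%) in 15 clusters of 10 or more. Width at P12 hardly differed among these classes, from 757 bp alone to 807 bp in the largest clusters, whereas the P17 peak over the member had a median of 2702 bp alone, 3633 bp in clusters of 2 to 4, 4593 bp in clusters of 5 to 9 and 5530 bp in the largest. These medians count a P17 peak once for each member under it, and close members often shared 1 peak. The rise with cluster size therefore follows in part from how clusters were defined. P17 H3K4me3 lay on 6.81% of members alone (5.08% to 9.07%) and on 2.14% of those in the largest clusters (0.916% to 4.9%), with overlapping values in between (6.2% and 5.36%). The median gap to P12 H3K4me3 was 16478 bp alone, 14620 and 16472 bp in between, and 21587 bp in the largest clusters. Whether that gap goes with the lower share was not tested. Members of the same cluster are not independent, so the interval for the 15 largest clusters is too narrow. EED lay on 0 of 617 members alone (up to 0.486%) and on 0 of 234 in the largest clusters (up to 1.28%).

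The cluster with the most isolated members lay on chromosome 4 at 153720676 to 153979667, with 31 members in 259 kb. P17 H3K27me3 peaks covered 56.1% of that stretch, against 15.9% for P12 H3K27me3 peaks. Over all chromosomes the P17 list covered 86.4 Mb and the P12 list 21.6 Mb, so greater coverage at P17 was not particular to the clusters named here. The chromosome 4 cluster held a single H3K4me3 peak at either stage and 1 EED peak. The next clusters both lay on chromosome 8. At 123665404 to 123918169 there were 29 isolated members, with 74.8% of the stretch covered at P17 and 22.9% at P12, 9 H3K4me3 peaks at either stage and 0 EED peaks. At 123211321 to 123392206 there were 27 isolated members, with 73.9% covered at P17 and 20.5% at P12, 6 H3K4me3 peaks at P17 against 3 at P12, and 0 EED peaks. The coverage at P17 came from many peaks rather than from a single domain: the 3 stretches held 33, 37 and 32 P17 H3K27me3 peaks, the widest of 18997 bp. The 1 Mb window on chromosome 8 from 123000001 to 124000000 held 72 isolated members, 3.7% of them all, and 36 flanking members.

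**Figure D5:**
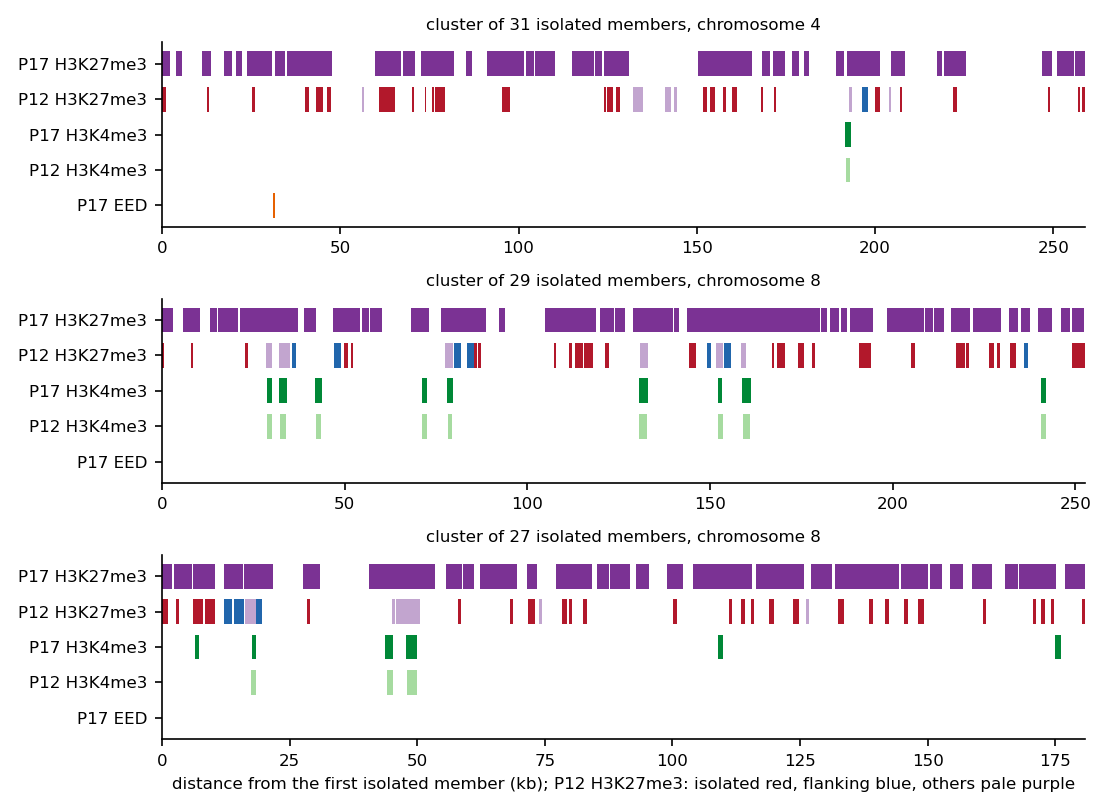
Peaks of the 5 lists in the 3 clusters with the most isolated members, by distance from the first isolated member in kb; boxes are peaks drawn to scale, except that the shortest are widened to stay visible, and in the P12 H3K27me3 row isolated members are red, flanking members blue and other peaks pale purple. P17 H3K27me3 covered 56.1%, 74.8% and 73.9% of the stretches from top to bottom, with 1, 9 and 6 H3K4me3 peaks at P17 and 1, 0 and 0 EED peaks.

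Single regions show these patterns. The widest isolated member, on chromosome 8 at 123070179 to 123075762, lay under a P17 peak of 8095 bp at 123069108 to 123077202 and measured 5584 bp at P12; its nearest P12 H3K4me3 peak was 6769 bp away, P17 H3K4me3 covered 1182 bp of it, and the nearest EED peak was 562228 bp away. The next in width were on chromosome 2 at 31728578 to 31732773 (4890 bp at P17, 4196 bp at P12) and on chromosome 17 at 46008164 to 46011910 (6012 bp at P17, 3747 bp at P12). They were followed by a member on chromosome 4 at 153782494 to 153786055 (7302 bp at P17, 3562 bp at P12), inside the largest cluster and 72540 bp from P12 H3K4me3, and by a member on chromosome 11 at 117458067 to 117461401 (8984 bp at P17, 3335 bp at P12). None of these 5 carried EED or was joined with a both-mark peak. Their P17 peaks were 1.17 to 2.69 times as wide as the members at P12, a ratio kept low by picking members for their P12 width. At 4890 to 8984 bp, these P17 peaks were all wider than the median of 3456 bp over isolated members.

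The 5 widest flanking members gave another picture. The widest lay on chromosome 15 at 98625544 to 98629739, 1581 bp from P12 H3K4me3; it lay in a P17 domain of 23548 bp and measured 4196 bp at P12. Those on chromosome 9 at 98861166 to 98865078, on chromosome 2 at 35950498 to 35954159 and on chromosome 1 at 186546528 to 186550051 lay in P17 domains of 18258, 24545 and 23715 bp. These 4 were joined with both-mark peaks, and the member on chromosome 2 carried 1 EED peak. The exception was the fifth, on chromosome 15 at 79290769 to 79294265, which lay in a P17 peak of 7306 bp that covered no both-mark peak, with the nearest EED peak 1777595 bp away.

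The flanking member with the most EED peaks, 4, lay on chromosome 3 at 128922380 to 128925291, 343 bp from P12 H3K4me3 and in a P17 H3K27me3 domain of 34969 bp; P17 H3K4me3 covered 43.6% of it. Next came a member on chromosome 1 at 78206287 to 78208190 with 3 EED peaks in a domain of 34111 bp, and a member on chromosome 12 at 74037327 to 74039291 with 2 in a domain of 13338 bp. The 2 isolated members with EED were short. The member on chromosome 13 at 56101738 to 56102409 lay under a P17 peak of 3281 bp and measured 672 bp at P12, and the member on chromosome 9 at 89776115 to 89776697 lay under 4495 bp and measured 583 bp. Both lay over 10 kb from H3K4me3 at either stage.

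Among isolated members, the most P17 H3K4me3 was found on chromosome 5 at 112001684 to 112004051, where it covered 1913 bp or 80.8% of a member of 2368 bp. On chromosome 11 at 114045386 to 114047160 it covered the whole member of 1775 bp, and on chromosome 1 at 184456871 to 184459275 it covered 1750 bp or 72.8% of 2405 bp. P12 H3K4me3 lay 5786, 8146 and 8559 bp away from these members, and 0 EED peaks lay on them.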

How the data were processed

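The submitters' processing notes list the build mm9 and the tools Bowtie, SAMtools and HTSeq, with neither roles nor versions. The deposited peaks carry names of the caller MACS and, in the file names, the level 5 of a false discovery rate; settings and use of input: not given in the sources used here. The lists hold chromosome, start, end and name, with no count or score. The deposited gene-body read counts were not used, since they cannot be placed on mm9 peaks here, and input libraries were not analysed here.

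Overlaps, gaps between edges and widths were computed with Python 3.11.15, NumPy 2.4.6 and pandas 2.3.3 and tested on simulated data. An overlap needed 1 bp. Shares have Wilson 95% intervals, a count of 0 also the limit of 3 counts of the total, and differences of shares Newcombe intervals; differences within 10 width classes are Mantel-Haenszel risk differences. No p-value was computed. The P17 peak of a member is the one sharing most bp with it. Clusters join isolated members with gaps of at most 50 kb. Regions named are the 5 widest members and the 3 with most EED peaks of each class, the 3 isolated members with most P17 H3K4me3 and the 3 clusters with most members. The members, lists and measures were chosen with earlier results of these data known. Alternatives were other overlap minimums, flank distances, stricter lists, merging of peaks and autosomes alone.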

Additional observations from a re-analysis of the deposited data

How the results depend on the processing

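Of 90 recomputed values, 62 kept their direction and side, moved by less than their interval, or were member counts such as 5192 and 3489 against 4247. A further 26 moved, 1 lost its call and 1 changed sign. These counts do not measure stability, since values that do not use the flank distance could not change when it was altered. A difference that kept its sign could also shrink, as for members minus both-mark peaks in EED, from -7.52 to -0.776 points. The value that changed sign is the difference in P17 H3K4me3 between isolated and flanking members. That difference was 0.0242 percentage points (-1.37 to 1.45) when P17 peaks extending from P12 H3K4me3 were left out, an interval that spans 0. The share of members with H3K4me3 was then 5.75%, and it was 34.1% when a peak within 1 kb counted. Merging P12 H3K27me3 peaks within 1 kb turned 1433 flanking members into parts of both-mark peaks: 2399 members were left, 67.4% isolated, under P17 peaks of 3452 bp and 832 bp wide at P12, 11.6% joined with a both-mark peak, 9.46% with H3K4me3 and 0.25% with EED. The difference in EED between isolated and flanking members was then -0.388 points (-1.19 to 0.0638), so that contrast depended on whether close P12 peaks were merged. Why it shrank was not tested. Members against both-mark peaks stood at -8.21 points. With P12 peaks of at least 1 kb, 1158 members were left, under P17 peaks of 6356 bp and 1298 bp wide at P12, 14.2% with H3K4me3 and 2.76% with EED. With 50% of the P12 peak required to be covered, 37.2% were isolated, and widths were 5543 bp at P17 and 835 bp at P12. H3K4me3 lay on 13.6%, and the EED difference from both-mark peaks was -0.776 points. This minimum held for H3K4me3 and EED overlaps too. Peaks covered less by P12 H3K4me3 thus became eligible as members, which came to 5192. EED peaks were short, with 303 bp as their median, against 835 bp for these members and 1545 bp for both-mark peaks in the main setting. A typical EED peak could therefore cover 50% of neither a typical member nor a typical both-mark peak. The share of members with EED was 1.21%, against 1.39% in the main setting. Why the EED difference was smaller at this setting was not tested. With the widest P17 peaks alone, 39.7% were isolated, under P17 peaks of 5999 bp and 809 bp wide at P12, and 50.2% were joined. A flank of 2 kb or 10 kb made 61.8% or 31.4% isolated. EED lay on 3.96% of members with EED within 1 kb counted and on 2.92% standardised to the widths of all P12 peaks; over 10 width classes the difference from both-mark peaks was -1.03 points. No paired analysis was possible because each mark and stage has a single list. Peak height and depth are unknown, which limits every share to what the authors' threshold passed.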
